A study of Drosophila melanogaster with 5 samples.

Results

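The ORFs described here are the open reading frames of more than 100 aa that start with an AUG inside transcripts annotated as noncoding RNAs (ncRNAs) in Drosophila melanogaster. They were taken from the deposited ncRNA ORF values by length alone, as the ORFs whose exon parts sum to more than 300 nt without the stop codon. Of 8095 listed ncRNA ORFs 201 passed this limit. An ORF shared by several transcripts is listed under each of them, and after counting every combination of chromosome, strand and exon coordinates once, 172 distinct long ORFs remained of 6436 distinct ncRNA ORFs. They lie in 163 of the 982 ncRNA transcripts and at 147 separate loci, since some ORFs share bases on the same strand. The transcripts of 160 distinct ORFs matched one of 124 genes by their FlyBase identifier, and 12 ORFs stayed without a gene name.

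All samples come from S2 cells, an embryonic Drosophila cell line with features of blood cells, grown in standard medium. The cells were treated briefly with cycloheximide, which holds ribosomes in place, before harvest. It was also present in the wash and the lysis buffer. Ribosome footprints were sequenced from large polysomes, from small polysomes in an extensive and in an initial experiment, and from all polysomes after depletion of rRNA, with total cytoplasmic poly(A)-selected mRNA as the measure of transcription. Each of these 4 footprint libraries has 1 sample, and only the small polysomes have a repeat, the deeper extensive library, so no test across ORFs was made and the difference between replicates is known for small polysomes alone. Over the 8 ORFs called translated below, extensive exceeded initial small polysomes by 1.27-fold to 5.30-fold in RPKM. All 8 were called in the extensive library and 6 of them not in the initial one. This choice favours ORFs high in the extensive library, so the range does not measure the general difference between replicates. Intervals below are 95% intervals that cover counting error or the spread across ORFs only.

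Long ncRNAs are named for the lack of a recognised protein product, yet most contain some AUG-initiated ORFs. A ribosome that translates an ORF shields a short stretch of it from nuclease, so sequenced footprints report where ribosomes sat, while polysome fractions are enriched for RNAs that carry several ribosomes at once. Antisense RNAs are a class of long ncRNA transcribed from the strand opposite to another gene, and they can therefore run across a protein-coding sequence (CDS) in the reverse direction.

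The values are RPKM, that is reads scaled by ORF length and library size, and coverage, the fraction of an ORF under footprints. Reads per ORF, computed back from RPKM, were whole for 100% of ncRNA ORFs in every library, with library sizes of 2625000 reads for large polysomes, 9160000 for small polysomes extensive, 5498000 for small polysomes and 3190000 for all polysomes. These sizes match the mapped reads the paper lists, and the share of them that mapped uniquely was lowest in initial small polysomes. The paper kept unique reads only, so RPKM in that library may be low against the others. This enters each ratio to that library and each call in it. At these depths 5 reads in an ORF of 300 nt amount to 6.35 RPKM in large polysomes, 1.82 in the extensive library, 3.03 in small polysomes and 5.22 in all polysomes. Of the blood cell genes used as markers of S2 cells, srp, Pxn, crq and eater had mRNA densities of 36.2 RPKM or more, Sr-CI had 7.31, He 1.40 and Hml 0.019, NimC1 was not matched, and markers of other tissues reached at most 1.75.

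The long ORFs were 303 to 1092 nt in length, or up to 364 aa, with a median of 375 nt (125 aa). 39 exceeded 150 aa, 10 exceeded 200 aa and 4 exceeded 300 aa. At the length limit itself, 5 ORFs of 303 nt fell inside and 6 distinct ORFs of 300 nt fell outside. Most of them, 122, lay within 1 exon, 44 were joined from 2 exons and 6 from 3. A long ORF was the longest of its transcript in 143 cases, covered a median of 30.6% of the transcript's length and shared the transcript with others, the median transcript of 1371 nt holding 9 ORFs. They were spread over the chromosomes, with 44 on 3R, 43 on 2L, 33 on 2R, 25 on X, 24 on 3L, 1 on chromosome 4 and 2 on unplaced sequence. Among 17 ncRNA genes known by function or history, such as the dosage compensation RNAs roX1 and roX2 and the heat shock RNA Hsromega, 12 had listed ORFs and none had a long one. The longest ORF in these 12 genes was 261 nt, in let7C, the host transcript of the let-7 microRNA.

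Overlap with annotated CDSs was almost entirely on the opposite strand. Only 1 of 172 long ORFs, in CR43836, shared bases with a CDS in the same direction, against 9 of 6264 ncRNA ORFs of 100 aa or less. In contrast, 59 of 172 long ORFs (34.3%, interval 27.6 to 41.7) shared bases with a CDS on the opposite strand, against 867 of 6264 shorter ORFs (13.8%, interval 13.0 to 14.7). With the overlap limited to 50% of the ORF or more, the numbers were 52 long (30.2%) and 759 shorter ORFs (12.1%), so the long ORFs overlapped CDSs on the opposite strand more than shorter ones at either limit, by intervals that do not meet. The 52 ORFs lie at 40 loci, so they are not independent of each other.

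By gene class, 69 long ORFs belonged to 49 genes named as antisense RNAs and 91 to 75 other long ncRNA genes. Of the ORFs in antisense RNAs 56 faced a CDS, of those in other long ncRNAs 0, and the remaining 3 were among the 12 ORFs without a gene name. The longest ORFs were of this kind. The ORF of 1092 nt (364 aa) in the antisense RNA CR43463 lay for 92.6% of its length opposite the CDS of Pgant35A, a glycosyltransferase that starts mucin-type O-glycosylation. The next 2, of 1008 and 984 nt in alternative transcripts of CR31429, lay wholly opposite neur, which encodes the ubiquitin ligase Neuralized of the Notch pathway.

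The register between an antisense ORF and its facing CDS was computed base by base. In 24 of the 52 long ORFs (46.2%, interval 33.3 to 59.5) the first codon position faced the third position of the CDS codon, which places the codons of both strands exactly opposite each other. Another 17 faced position 2, 6 faced position 1, and 5 changed register between exons. In the 759 shorter antisense ORFs, position 3 was faced by 192 (25.3%, interval 22.3 to 28.5) and position 2 by 364 (48.0%). The codon-on-codon register was thus the most frequent among the long ORFs and not among the shorter ones, and the intervals of its 2 shares do not meet. No facing CDS had a length that is not a multiple of 3.

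**Figure D1:**
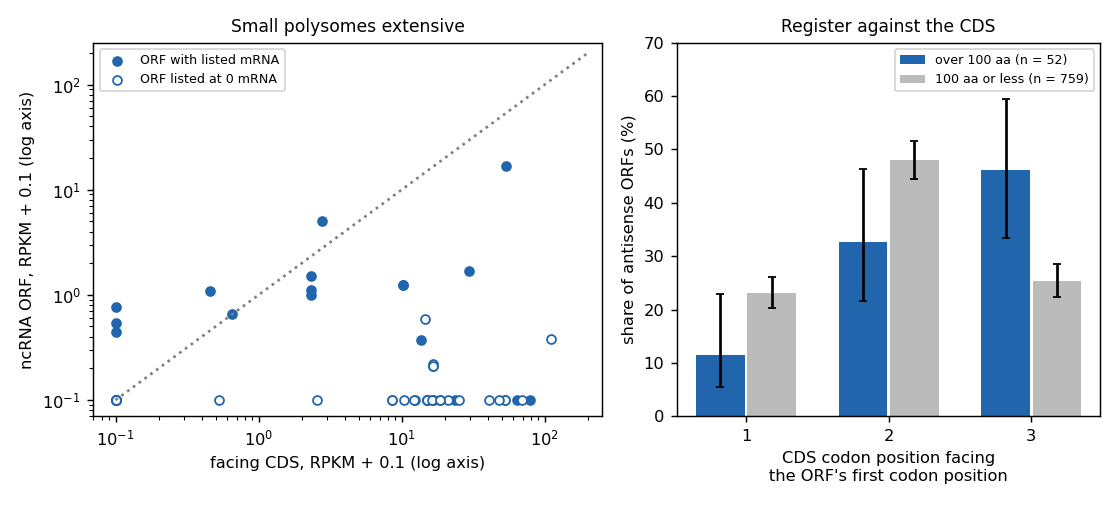
Antisense long ORFs and the CDSs they face. Left, footprint RPKM plus 0.1 in small polysomes extensive of the 52 ORFs that lie at least 50% inside a CDS of the opposite strand (y, log axis) against that of the CDS (x, log axis), filled where the transcript had listed mRNA, with the dotted line marking equal density: 26 of the 42 ORFs opposite a CDS with footprints lie at 0 (0.1 on the axis). Right, the share (%) of antisense ORFs by the CDS codon position that faces the ORF's first codon position, with 95% Wilson intervals: position 3 holds 46.2% of the long ORFs and 25.3% of the shorter ones.

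Most ORFs opposite a CDS with footprints had none themselves. Against all 170 long ORFs with values, the share of such ORFs without footprints was similar in large and all polysomes. It was lower in small polysomes extensive and higher in initial small polysomes. In large polysomes 34 of 38 such ORFs had none (89.5%, against 90% of all long ORFs), in small polysomes extensive 26 of 42 (61.9%, against 69.4%), in small polysomes 37 of 40 (92.5%, against 80.0%) and in all polysomes 32 of 39 (82.1%, against 83.5%). The facing CDSs had a median of 15.6 RPKM in the extensive library. Where the facing CDS had footprints, the ORF was denser than it in 3 cases in the extensive library and in 3 in all polysomes. There were none in large and in initial small polysomes. Opposite a CDS at 0, ORFs with footprints occurred there too. Examples are CR43257 in large polysomes (2.44 RPKM) and CR43426 in initial small polysomes (4.45 RPKM in the ORF of 327 nt). The antisense RNA ASTR faced a CDS of high density. Its 2 long ORFs, of 348 and 486 nt, had 0 RPKM in every library, while Rga, the CDS they face and a subunit of the CCR4-NOT complex, had 109.9 RPKM in large polysomes, 52.2 in small polysomes extensive, 39.4 in small polysomes and 67.2 in all polysomes. The ORF of CR44431 facing Mgstl, a microsomal glutathione S-transferase, had 1.98 RPKM in large polysomes and 0.284 in small polysomes extensive, against 48.1 and 110.6 for the CDS. In these examples dense footprints on a CDS did not appear on the ORF of its other strand. How strand was handled in counting is not given in the sources used here.

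Transcription was the exception for long ncRNA ORFs. For ncRNA ORFs the mRNA value is that of the transcript's exons, and for CDSs it is that of the CDS itself. RPKM values were given for 170 of the 172. Of these 170, 46 ORFs at 39 loci had an mRNA RPKM above 0 (27.1%, interval 20.9 to 34.2), close to the 1756 of 5947 shorter ncRNA ORFs (29.5%, interval 28.4 to 30.7) and below the 701 of 1424 distinct CDSs of the similar length of over 100 and up to 150 aa (49.2%, interval 46.6 to 51.8). The median of the 46 was 0.932 RPKM and 20 of them reached 1 RPKM. The 5 transcribed at the highest mRNA density were CR42862 (269.2 RPKM), CR43767 (32.8), CR43836 (27.4), CR43864 (6.21) and CR31044 (5.83). Transcripts without a poly(A) tail would not have been captured in this mRNA fraction. The named long ncRNAs iab4, of the bithorax complex, and cherub, studied in neural stem cells, were among those listed at 0 mRNA, with 1 and 3 long ORFs.

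Footprints fell on 61 of the 170 ORFs in at least 1 library and on none of the other 109. By library, 17 ORFs had a footprint in large polysomes, 52 in small polysomes extensive, 34 in small polysomes and 28 in all polysomes. Both measures were at 0 throughout for 103 ORFs. Footprints without listed mRNA occurred on 21 ORFs, with at most 11 reads summed over the libraries, and 6 ORFs had mRNA without a footprint.

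An ORF counted as translated in a library where it had 11.8 RPKM or more, footprints over 0.57 or more of its length, and 5 or more reads, the limits the study set. By this rule 8 of the 170 long ORFs at 7 loci were translated in at least 1 library (12 of the listed ORFs), where 5.13% of all distinct ncRNA ORFs with values were. In large polysomes 1 was translated (1.13% of all ncRNA ORFs), in small polysomes extensive 8 (4.61%), in small polysomes 2 (2.08%) and in all polysomes 6 (2.24%). All 8 were transcribed, with mRNA densities above 1 RPKM. As a share of transcribed ORFs this was 8 of 46 (17.4%, interval 9.09 to 30.7), close to 303 of 1756 shorter ncRNA ORFs (17.3%, interval 15.6 to 19.1) and to 44 of 266 ncRNA ORFs of 51 to 100 aa (16.5%, interval 12.6 to 21.5). It was below the 438 of 701 transcribed CDSs of over 100 and up to 150 aa (62.5%, interval 58.8 to 66.0). The CDSs were also transcribed at higher density, with a median of 46.1 RPKM. Among ORFs with 1 RPKM of mRNA or more, 8 of 20 long ncRNA ORFs (40.0%, interval 21.9 to 61.3), 299 of 896 shorter ones (33.4%) and 438 of 650 such CDSs (67.4%, interval 63.7 to 70.9) were translated. The ORFs over 100 aa found in 5′ leaders were left out of this comparison, since between 18.9% and 28.7% of leader ORFs with coverage in a library were listed at 0 RPKM. Among the long ncRNA ORFs this occurred once, for CR44431 in small polysomes.

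**Figure D2:**
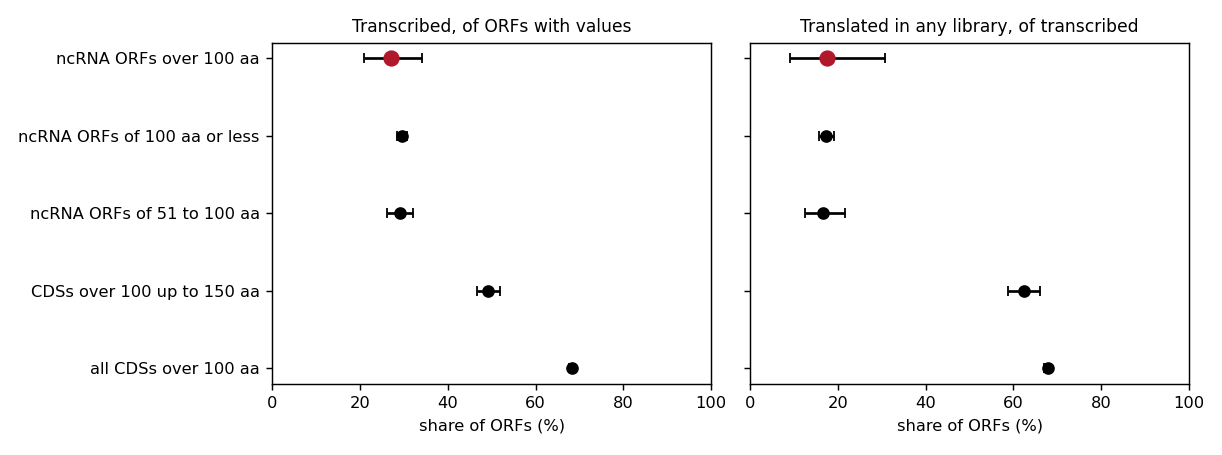
Shares of ORFs that were transcribed (left, % of distinct ORFs with values) and translated in at least 1 library (right, % of transcribed ORFs), with 95% Wilson intervals, for the long ncRNA ORFs (red) and other ORF classes (black). The long ncRNA ORFs, at 27.1% and 17.4%, lie beside the shorter ncRNA ORFs and below CDSs of similar length.

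In small polysomes extensive and in all polysomes, most ORFs past the density limit also passed the coverage limit, but not in the other libraries. In large polysomes 2 ORFs reached 11.8 RPKM and 1 a coverage of 0.57, in small polysomes extensive 9 and 8, in small polysomes 5 and 2, and in all polysomes 7 and 7. In the extensive library, the 1 ORF that passed the density limit but not the coverage limit was the ORF of 111 aa at chr3L:633361-633693 in CR43334, a transcript of 15466 nt with 118 ORFs that by the later BDGP6 annotation spans the growth-promoting microRNA bantam. It had 28.5 RPKM (87 reads) with a coverage of 0.301 in small polysomes extensive, 4.37 RPKM in small polysomes, 2.82 in all polysomes and 0 in large polysomes. These reads sat on 100 nt of the ORF. The other 3 long ORFs of CR43334 had 3.60 to 7.22 RPKM in the extensive library, and none was translated.

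**Figure D3:**
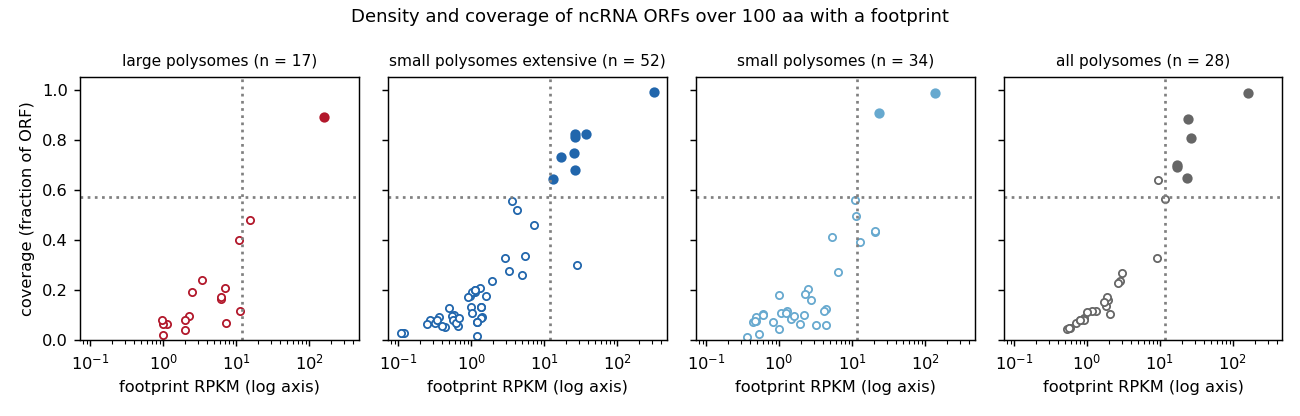
Footprint RPKM (x, log axis) and coverage (y, fraction of the ORF) of the long ncRNA ORFs with a footprint in each library, filled where the ORF counted as translated, with dotted lines at 11.8 RPKM and a coverage of 0.57. Of 17, 52, 34 and 28 ORFs, 1, 8, 2 and 6 lie beyond both limits.

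Footprint density was highest in the ORF of 140 aa of CR42862 (chr3L:230515-230934, plus strand), which 5 transcripts share and which was the 1 long ORF translated in all libraries. Its mRNA density was the highest too, at 269.2 RPKM. Footprint over mRNA RPKM was 1.19 in small polysomes extensive, where the translated long ORFs ranged from 0.962 (CR43836) to 21.1 (FBtr0303020). The footprint density of the CR42862 ORF was 159.6 RPKM in large polysomes (176 reads), 320.2 in small polysomes extensive (1232 reads), 134.7 in small polysomes (311 reads) and 160.5 in all polysomes (215 reads). Coverage was 0.893, 0.990, 0.988 and 0.986 in the same libraries, so nearly the whole ORF carried footprints in each. Large polysomes did not differ from initial small polysomes beyond counting error (ratio 1.18, interval 0.980 to 1.43). They were lower than small polysomes extensive (ratio 0.4985, interval 0.423 to 0.584). Small polysomes extensive were 2.38-fold above small polysomes (interval 2.10 to 2.70). This last ratio compares 2 libraries of the same fraction. The transcript holds 36 ORFs over 5480 nt, and this one starts at nt 5036. Its density ranked 27th of 36 in small polysomes extensive, where the 35 other ORFs of the transcript together had 584.2 RPKM and all 35 were translated. Many of the 35 overlap one another. Reads on bases they share are counted for each of them, in the pooled densities and in the calls. In large polysomes the others had 158.3 RPKM and 33 of 35 were translated, in small polysomes 323.6 RPKM and in all polysomes 270.6 RPKM, each with 35 of 35. The footprints thus ran along the whole of this RNA, and the long ORF at its 3′ end was among the less dense ORFs in 3 of the libraries.

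The second highest density in small polysomes extensive among the translated ORFs was that of the 106-aa ORF in the antisense RNA CR43767 (chr2L:1158770-1159087, minus strand, mRNA 32.8 RPKM). It had 15.6 RPKM in large polysomes, 37.8 in small polysomes extensive, 23.4 in small polysomes and 24.6 in all polysomes, with coverages of 0.479, 0.823, 0.909 and 0.883. It was translated in the last 3 of these and missed the coverage limit in large polysomes. It was the densest of the 6 ORFs of its transcript in large polysomes, small polysomes extensive and small polysomes and the fourth in all polysomes. The 2 ORFs of the transcript that share no base with it, of 90 and 48 nt, had 21.4 RPKM together in small polysomes extensive. An ORF of 93 nt that shares 1 nt with it had 4.10 RPKM in large polysomes, 35.2 in small polysomes extensive, 19.6 in small polysomes and 47.2 in all polysomes, so the neighbouring ORF was near the long one in both small polysome libraries and above it in all polysomes. 35.2% of it faced Tango14, a gene named for Golgi organisation, whose CDS had 94.3 RPKM in small polysomes extensive.

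CR43836 holds the ORF of 112 aa that overlaps a CDS on its own strand (chrX:8867169-8942537, minus strand, 2 exons, 336 nt). It shared 177 nt (52.7%) with the CDS of CG10962, all in its 3′ exon and in a different reading frame. It had 3.40 RPKM (3 reads) in large polysomes, 26.3 (81 reads) in small polysomes extensive, 13.0 (24 reads) in small polysomes and 23.3 (25 reads) in all polysomes, and was translated in the extensive and the all-polysome library. The CDS of CG10962 had 17.3, 66.5, 47.3 and 35.1 RPKM in the same libraries. Which share of the ORF's reads fell on the shared stretch cannot be read from values per ORF, so reads of the CDS and of the ORF cannot be told apart there. The 5 ORFs of the transcript that share no base with it had 18.6 RPKM in small polysomes extensive, where it ranked 3 of 6 and 3 of the others were translated.

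CR43241 contributed 2 of the 8, ORFs of 104 and 103 aa from alternative transcripts that have 304 nt in common (chr2L, plus strand, both starting at 22131341). The longer had 6.11 RPKM (5 reads) in large polysomes, 26.2 (75 reads) in small polysomes extensive, 20.4 (35 reads) in small polysomes and 17.1 (17 reads) in all polysomes, and the shorter differed by at most 1 read in any library. Both were translated in the extensive and the all-polysome library, and both had a coverage of 0.43 in small polysomes. Large polysomes were lower than small polysomes (ratio 0.299, interval 0.0915 to 0.767). Against small polysomes extensive the ratio was 0.233 (interval 0.0734 to 0.567). Within the transcript of the longer, an ORF of 108 nt that lies wholly inside it had a higher density, at 41.4 RPKM in small polysomes extensive, 38.7 in small polysomes and 31.9 in all polysomes. Reads on these shared bases count for both ORFs and cannot be told apart. The 1 other ORF that shares no base with the longer had 4.55 RPKM (3 reads) in the extensive library and 0 in the others. The same 304 nt are also annotated, in the same frame, within a leader ORF of 321 nt in a transcript of the protein-coding gene CG42748, which is listed at 0 RPKM with a coverage of 0.779 in small polysomes extensive. The mRNA density was 4.20 and 3.55 RPKM for the CR43241 transcripts and 12.5 RPKM for that of CG42748.

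The longest translated ORF, of 151 aa, was the only long ORF on chromosome 4 (chr4:488477-491774, plus strand, 3 exons, 453 nt, transcript FBtr0303020, no gene matched). It had 10.9 RPKM (13 reads) in large polysomes, 25.8 (107 reads) in small polysomes extensive, 11.2 (28 reads) in small polysomes and 27.0 (39 reads) in all polysomes, with coverages of 0.40, 0.747, 0.496 and 0.809. It passed the limits in the extensive and the all-polysome library and lay just under the density limit in the others. Its transcript had only 1.22 RPKM of mRNA. Translation efficiency (TE), footprint RPKM over mRNA RPKM, was 21.1 in the extensive library and 22.1 in all polysomes, the highest value of any translated long ORF. The 3 ORFs of the transcript without a shared base had together 17.8 RPKM in large polysomes, 10.2 in small polysomes extensive, 1.21 in small polysomes and 18.8 in all polysomes, so the long ORF lay below them in large polysomes and above them in the others. An ORF of 30 nt among them was denser than it in the extensive library (36.4 RPKM). Large and initial small polysomes did not differ beyond counting error (ratio 0.972, interval 0.462 to 1.94). Against small polysomes extensive, large polysomes were lower (ratio 0.424, interval 0.219 to 0.756).

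The last 2 were translated in small polysomes extensive only. The 115-aa ORF of the antisense RNA CR43944 (chr3L:20383833-20384177, minus strand) had 0 RPKM in large polysomes, 16.8 (53 reads) in small polysomes extensive, 11.1 (21 reads) in small polysomes and 11.8 (13 reads) in all polysomes. Its coverages of 0.558 in small polysomes and 0.564 in all polysomes lay just below the limit. No read fell on it in large polysomes, where the ratio to small polysomes was at most 0.402 by its interval. For 82.6% of its length it faced fbl, a pantothenate kinase of coenzyme A synthesis, codon on codon, and fbl had 45.2, 53.6, 29.9 and 38.5 RPKM in large polysomes, small polysomes extensive, small polysomes and all polysomes. In the extensive library it ranked 7 of the 18 ORFs of its transcript, and 7 of the 13 that share no base with it were translated, with 12.7 RPKM together. Of the 52 antisense ORFs it had the highest density there, the next being 4.90 RPKM in CR43257 opposite ETH, the gene for ecdysis triggering hormone (2.68 RPKM). In all polysomes CR43257 had 9.04 RPKM (9 reads), close to CR43944, and in large polysomes it had 2.44 RPKM where CR43944 had none.

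The 145-aa ORF of CR43459 (chr3R:5924779-5925213, plus strand, mRNA 2.38 RPKM) had 7.01 RPKM (8 reads) in large polysomes, 13.3 (53 reads) in small polysomes extensive, 2.51 (6 reads) in small polysomes and 9.37 (13 reads) in all polysomes. It lies in a transcript of 6454 nt with 46 ORFs and ranked 36th among them in the extensive library. The 41 ORFs that share no base with it had 40.3 RPKM there and 32 of them were translated. In the other libraries fewer of the 41 were translated, 2 in large polysomes, 9 in small polysomes and 7 in all polysomes. The long ORF lay below the pooled others in small polysomes (12.6 RPKM) and all polysomes (12.7) and beside them in large polysomes (6.98).

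**Figure D4:**
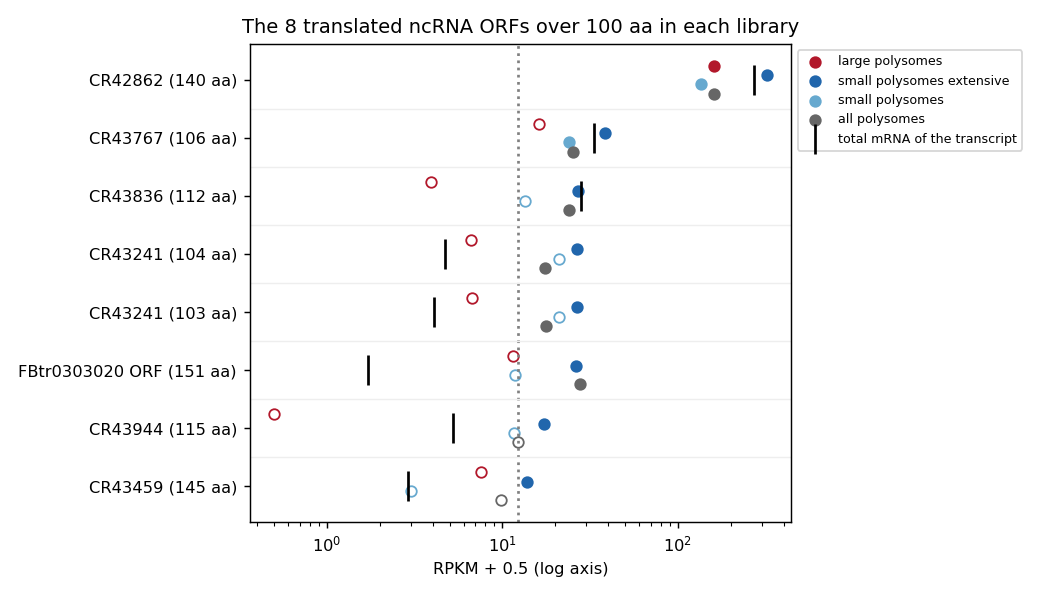
Density of the 8 translated long ncRNA ORFs in each footprint library (circles, filled where the ORF counted as translated) and mRNA density of the transcript (black bars), as RPKM plus 0.5 on a log axis, with the dotted line at the density limit of 11.8 RPKM. All 8 are filled in small polysomes extensive and 1, CR42862, in large polysomes. The extensive density lies above the mRNA density in each except CR43836 (26.3 against 27.4 RPKM).

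**Figure D5:**
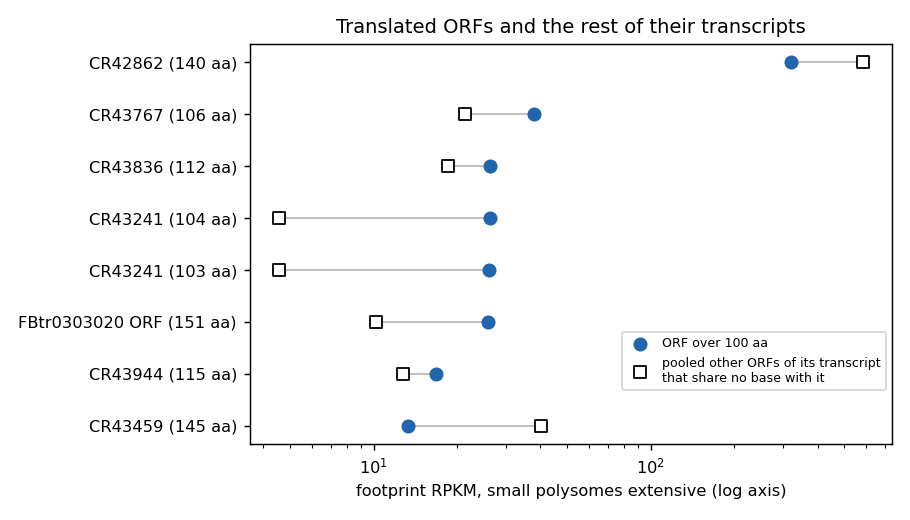
Footprint RPKM in small polysomes extensive (log axis) of each translated long ORF (blue circle) and of the pooled ORFs of its transcript that share no base with it (open square). The long ORF lies below the pooled others in CR42862 and CR43459 (320.2 against 584.2 and 13.3 against 40.3 RPKM) and above them in the other 6. The long ORFs shown were chosen by density and coverage in this same library and the pooled ORFs were not, which favours the long ORF. Pools can be small, as the 1 ORF with 3 reads in CR43241. Pooled ORFs can overlap one another, and reads they share are counted for each of them. Single ORFs of a transcript can still be denser than the long one, as in CR43944, where it ranked 7 of 18.

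Among the ORFs that were not translated, 18 had at least 5 reads in some library. CR43864, an antisense RNA with an ORF of 170 aa, had 11.2 RPKM (15 reads) in large polysomes, 1.93 (9 reads) in small polysomes extensive, 6.42 (18 reads) in small polysomes and 1.84 (3 reads) in all polysomes. Its large-polysome reads covered 0.116 of the ORF. CR43423, of 107 aa, likewise had its highest density in large polysomes, at 7.12 RPKM (6 reads, coverage 0.069) against 1.36 to 2.27 RPKM elsewhere. Of the remaining non-translated ORFs with the most reads, CR43257 reached 9.04 RPKM in all polysomes, CR43651 4.30 in small polysomes extensive, CR44368 3.16 in small polysomes, CR31044 2.99 in all polysomes, and CR43989 2.89 and CR44357 2.72 in a small polysome library. Their coverage stayed at or below 0.521 throughout. The longest ORFs stood at the other end. CR43463 (1092 nt) had 2 reads over all libraries and the ORFs of 1008 and 984 nt in CR31429 had 1 read each, with no listed mRNA for any of them.

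Over the 46 transcribed long ORFs, the median TE was 0 in large polysomes (interval 0 to 0.124), 1.29 in small polysomes extensive (0.888 to 2.51), 0.468 in small polysomes (0 to 1.03) and 0.478 in all polysomes (0 to 0.963). In CDSs of over 100 and up to 150 aa it was 0.322, 1.23, 0.988 and 0.688. The mRNA value was taken over the CDS itself for CDSs and over the transcript's exons for ncRNA ORFs, so the measures are not quite alike. In large polysomes the interval of the long ncRNA ORFs ended below that of these CDSs (0.277 to 0.355), and in the other libraries the intervals met. In ncRNA ORFs of 51 to 100 aa it was 0 in large polysomes, 0.823 in small polysomes extensive (interval 0.639 to 1.09), 0 in small polysomes and 0.352 in all polysomes, with intervals that met those of the long ORFs in each. Over all shorter ncRNA ORFs, of which 51.1% to 83.8% had no read, the median was 0 in every library. TE of an ORF with little mRNA rests on few reads of both kinds, and 26 of the 46 lay under 1 RPKM of mRNA.

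The distribution between large and small polysomes could be compared for the 17 long ORFs with at least 5 reads in either library. The median log2 ratio of large to small polysomes, with 1 RPKM added to both, was -1.56 (interval -1.89 to -0.04), with 4 ORFs higher in large and 13 lower. Without the filter on reads it was -0.86 over the 37 ORFs with a footprint in either library (interval -1.19 to -0.52). It was -1.20 for 271 shorter ncRNA ORFs (interval -1.46 to -1.04) and -1.61 for 523 CDSs of over 100 and up to 150 aa (interval -1.70 to -1.45), while CDSs over 100 aa of any length had 0.55 (interval 0.53 to 0.57). Most of these 17 ORFs thus had less footprint density in large than in small polysomes, as had most such CDSs of similar length. Their interval did not overlap that of CDSs over 100 aa of any length. However, 5 reads in 300 nt are 3.03 RPKM in small and 6.35 RPKM in large polysomes. The filter therefore admits ORFs more readily through small polysomes, which lowers the median by itself. Some of the 17 share bases, as the ORFs of CR43241 do, so the interval treats dependent ORFs as independent.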

How the data were processed

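Footprints of large, small (initial and extensive) and all polysomes and total mRNA of S2 cells were analysed, 1 sample each. The authors discarded reads of rRNA and tRNA with Bowtie, used TopHat and FlyBase Release 5.50 to place the others (at most 2 mismatches, unique matches only), and found ORFs in ncRNAs with getorf. The values the authors deposited are RPKM for footprints and mRNA, and coverage as a fraction of each ORF. The mRNA values appear to pool 2 libraries, since their divisor of 4560000 reads lies near the sum of both.

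Distinct ORFs were formed by coordinates, with the highest mRNA RPKM of the listings. The reads behind each RPKM were obtained from ORF length and library size, and were whole within 0.02. On simulated data for 8095 ORFs this step returned 100% of the counts. Overlap with CDSs of the tables was counted in bases, with at least 50% of the ORF for antisense pairs. Gene names came from the Ensembl BDGP6 annotation by transcript identifier, of which no coordinates were printed. Intervals are Wilson for shares, order-statistic for medians and exact binomial for ratios of reads. Intervals of shares and medians cover the spread across ORFs, those of read ratios counting error only, since PCR copies were not removed by molecular identifiers. ORF sequences were not used here.

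The ORFs named are all translated ones, the 12 others with the most reads, the 3 longest, the 5 with the highest mRNA and those in listed ncRNA genes. In addition ASTR, CR44431, iab4 and cherub were named after their values were seen. Members and lists were chosen with earlier results of these data known. Alternatives varied the limits of the call, distinct against listed ORFs, ORF length, CDS overlap and the set of libraries. The software was scipy 1.17.1, pandas 2.3.3 and numpy 2.4.6 under Python 3.11.15, with plots by matplotlib 3.10.9.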

Additional observations from a re-analysis of the deposited data

How the results depend on the processing

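The count of 8 translated long ORFs in any library stayed at 8 with a coverage limit of 0.40, with 10 reads, with 5 RPKM and with the 3 experiments of the study (both small polysome libraries and all polysomes), and was 7 without the ORF that shares bases with a CDS on its strand and 6 without small polysomes extensive. Among ORFs over 450 nt it was 1, in the extensive library and in any library, with 1 in all polysomes and 0 in small and in large polysomes. With coverage 0.40 small polysomes had 4 and large polysomes 2. Counting each listed ORF gave 6 in small polysomes, 5 in large polysomes and 10 in all polysomes, since CR42862 is listed 5 times. Of the 46 transcribed ORFs 20 reached 1 RPKM of mRNA, 6 reached 5 RPKM, and 7 were over 450 nt. The median log2 ratio of large to small polysomes was -0.86 without the filter on reads, -1.21 with the extensive library in place of the initial one and -1.72 with 0.1 RPKM added. Median TE in large polysomes was 0.459 over the 6 ORFs with 5 RPKM of mRNA. Of 51 alternatives 37 stayed within 1.5 times the count or within the interval of the median and 14 moved. Only the median log2 ratio could change sign, since counts and TE cannot be negative, and 0 of its alternatives did. No paired analysis was possible because each library has 1 sample and no test was made. At the depth of large polysomes the shortest long ORF needed 9.38 reads to reach 11.8 RPKM, against 32.7 in small polysomes extensive, so calls in large polysomes rest on fewer reads.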
